A study of Mus musculus with 2 samples.

Results

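The 8 genes followed here belong to innate-type receptor signalling and were measured in mouse intestinal T cells: the adaptor genes Fcer1g, Tyrobp and Hcst, the receptor gene Klrk1, and the genes Syk, Lyn, Clnk and Sh2d1b1, whose products act downstream of such receptors. They were taken by symbol, and all 8 were found among the 55357 genes of the deposited lists. The data were 2 droplet libraries of single cells made with a 10x Genomics 3' kit, 1 labelled SAP and 1 labelled Control. Per the series' design text, dendritic cells were loaded with phages from SAP mice or from healthy mice and then cultured with gut T cells of GF mice; an enzymatic surface tag (FucoID) marks T cells that a dendritic cell touched. The labels name mouse ileum as the tissue and give no strain, age or sex, and the labels do not say whether the sequenced cells were the tagged or the untagged ones. All T cells in both libraries therefore share the GF host and the culture with dendritic cells, and the libraries differ in the label of the phage source. With 1 library a group there is no replicate, no test was run, and every interval below covers counting error only.

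Many activating receptors of natural killer cells and of tissue T cells have no signalling motif of their own and pair in the membrane with a small adaptor. FcRγ, encoded by Fcer1g, and DAP12, encoded by Tyrobp, hold an ITAM, a tyrosine motif that Src family kinases phosphorylate and that then binds the kinases Syk or ZAP-70. DAP10, encoded by Hcst, has no ITAM and recruits phosphoinositide 3-kinase through a YINM motif; it is the partner of NKG2D, the product of Klrk1. The T cell receptor signals through ITAMs of the CD3 chains and of CD247, and FcRγ can stand in for CD247 in some intraepithelial T cells. In the intestinal epithelium, γδ T cells and αβ T cells with a CD8αα homodimer are known for a natural killer-like set of receptors, which conventional CD8αβ and CD4 T cells mostly lack.

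Cells were sorted into gates by raw counts of unique molecular identifiers (UMIs, each a captured RNA molecule). A T cell was a barcode with a UMI of Cd3e, Cd3d or Cd3g, which gave 4651 SAP and 5251 Control cells with a median of 3436 and 3147 UMIs. The Trdc gate held cells with a UMI of Trdc, the constant region of the δ chain, and none of Cd8b1 or Cd4, 1991 in SAP and 2208 in Control. The Cd8a-only gate held cells with Cd8a and none of the other 3 gate genes, 1183 and 1436. The Cd8b1 gate held cells with Cd8b1 and no Trdc or Cd4, 540 and 535. The Cd4 gate held cells with Cd4 alone, 164 and 183. A further 648 SAP and 758 Control T cells had no UMI of any gate gene and are called ungated. A missing UMI does not show that a gene was off, so the Cd8a-only and ungated cells can hold γδ cells whose Trdc RNA was not captured.

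The T cell set was chosen by CD3 UMIs, so its CD3 levels are no check of the label. Of the receptor constant regions, which that choice did not use, Trac had 465 CPM (counts per 1000000 UMIs) in SAP and 506 in Control, Trbc2 1068 and 1144, and Trdc 487 and 493. Lists of other cell types summed to 9.45 to 196 CPM in SAP and 10.9 to 843 CPM in Control, where the highest was the B and plasma cell list, led by Igkc. The libraries shared 6 cell barcodes, of which 5 were retained. Within the T cell set, 36 SAP and 11 Control barcodes had 2 or more UMIs of Folr1, a folate receptor gene, with a median of 33247 and 34656 UMIs. They held 6.52% of the SAP and 2.05% of the Control T cell UMIs, and their T cell markers summed to 153 and 203 CPM. Their share is larger in SAP, so the ratios of SAP to Control are given with and without them; this alternative was chosen after the data were seen.

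Tyrobp and Hcst are neighbours in the genome. In GENCODE M21 (GRCm38) Tyrobp is at chr7:30413760-30417585 on the plus strand and Hcst at chr7:30417712-30419854 on the minus strand, tail to tail with 126 bases between their ends. Fcer1g is at chr1:171229572-171234365 on the minus strand and Sh2d1b1 at chr1:170277320-170286769 on the plus strand. Klrk1 is at chr6:129610323-129623864 (minus), Lyn at chr4:3678115-3813122 (plus), Syk at chr13:52583173-52648792 (plus) and Clnk at chr5:38706462-38876812 (minus). Clnk and Lyn overlap genes on the other strand, Clnkos for Clnk and 4 genes for Lyn; how the counting used strand is not stated, so their counts are uncertain to that extent. RefSeq promoter windows (GRCm38.p6, 250 bases before to 50 after the gene's start) were at hand for 6 of the 8 genes. Those of Fcer1g, Sh2d1b1 and Clnk are printed because these genes were higher in the Trdc and Cd8a-only cells than in the Cd8b1 and Cd4 cells. That of Hcst is printed because its level did not follow this order. The windows were thus picked by level, and a link between letters and level was not tested. Capitals mark matches to TGTGGT, the core bound by RUNX factors, to AGGAAG, bound by ETS factors, and to GGTGTG, bound by T-box factors, each on either strand.
Fcer1g, chr1:171234300-171234599, minus strand: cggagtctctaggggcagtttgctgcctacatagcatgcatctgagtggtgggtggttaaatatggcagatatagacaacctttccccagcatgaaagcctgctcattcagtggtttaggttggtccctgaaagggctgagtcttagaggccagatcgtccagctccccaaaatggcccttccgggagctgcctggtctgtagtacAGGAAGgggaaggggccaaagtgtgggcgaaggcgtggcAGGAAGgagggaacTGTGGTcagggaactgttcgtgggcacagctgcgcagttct
Sh2d1b1, chr1:170277068-170277367, plus strand: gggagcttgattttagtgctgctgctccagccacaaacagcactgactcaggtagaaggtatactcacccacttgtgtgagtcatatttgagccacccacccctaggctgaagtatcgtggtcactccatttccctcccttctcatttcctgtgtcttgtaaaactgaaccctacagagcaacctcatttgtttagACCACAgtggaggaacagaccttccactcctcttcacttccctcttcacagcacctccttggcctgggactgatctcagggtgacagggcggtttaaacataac
Clnk, chr5:38876644-38876943, minus strand: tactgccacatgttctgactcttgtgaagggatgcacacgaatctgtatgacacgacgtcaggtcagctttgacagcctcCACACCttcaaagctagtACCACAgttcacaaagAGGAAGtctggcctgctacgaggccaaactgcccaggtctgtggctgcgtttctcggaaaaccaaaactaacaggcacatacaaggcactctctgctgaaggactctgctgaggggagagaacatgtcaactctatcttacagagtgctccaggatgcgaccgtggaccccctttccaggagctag
Hcst, chr7:30419805-30420104, minus strand: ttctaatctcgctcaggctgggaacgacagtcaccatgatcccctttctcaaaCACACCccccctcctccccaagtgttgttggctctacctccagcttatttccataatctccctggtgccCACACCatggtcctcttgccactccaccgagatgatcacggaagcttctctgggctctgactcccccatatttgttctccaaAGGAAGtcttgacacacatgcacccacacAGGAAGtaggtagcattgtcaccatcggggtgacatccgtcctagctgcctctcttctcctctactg
The RUNX letters occurred once each in the windows of Fcer1g, Sh2d1b1 and Clnk and not in that of Hcst. Of the windows not printed, that of Klrk1 held them once and the 2 of Syk did not. They occur in 16.8% of all 32851 windows of this length. The ETS letters occurred in the windows of Fcer1g, Clnk and Hcst, against 35.4% of all windows, and the T-box letters in those of Clnk and Hcst, against 19.0%. A match describes the letters of the window and is not evidence of binding.

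The ITAM adaptor genes Fcer1g and Tyrobp were high in the Trdc and Cd8a-only cells, between 8.82 and 18.9 times as high as in the Cd8b1 cells, and lowest in the Cd4 cells, in both libraries. Fcer1g had 1373 CPM (95% Poisson interval 1347 to 1400) in the SAP and 1461 (1434 to 1488) in the Control Trdc gate. The Cd8a-only gate had 1482 CPM in SAP and 1583 in Control, and the Cd8b1 gate 92.6 (79.9 to 107) and 102 (87.6 to 117). In the Cd4 gate Fcer1g had 4.76 CPM in SAP, from 3 UMIs in 2 cells, and 38.9 in Control, from 27 UMIs in 18 cells. The ungated cells lay between, at 354 CPM in SAP and 521 in Control. Among Trdc cells, those with Cd8a were higher than those without, at 1564 against 770 CPM in SAP and 1665 against 914 in Control, so the order was Trdc with Cd8a, Cd8a-only, Trdc without Cd8a, ungated, Cd8b1, Cd4 in both libraries, with no overlap of the intervals of neighbours. B and plasma cell markers summed to 31.9 CPM in SAP Trdc cells with Cd8a against 23.4 in those without, and to 53.0 against 2934 CPM in Control; their part in this difference was not tested.

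**Figure D1:**
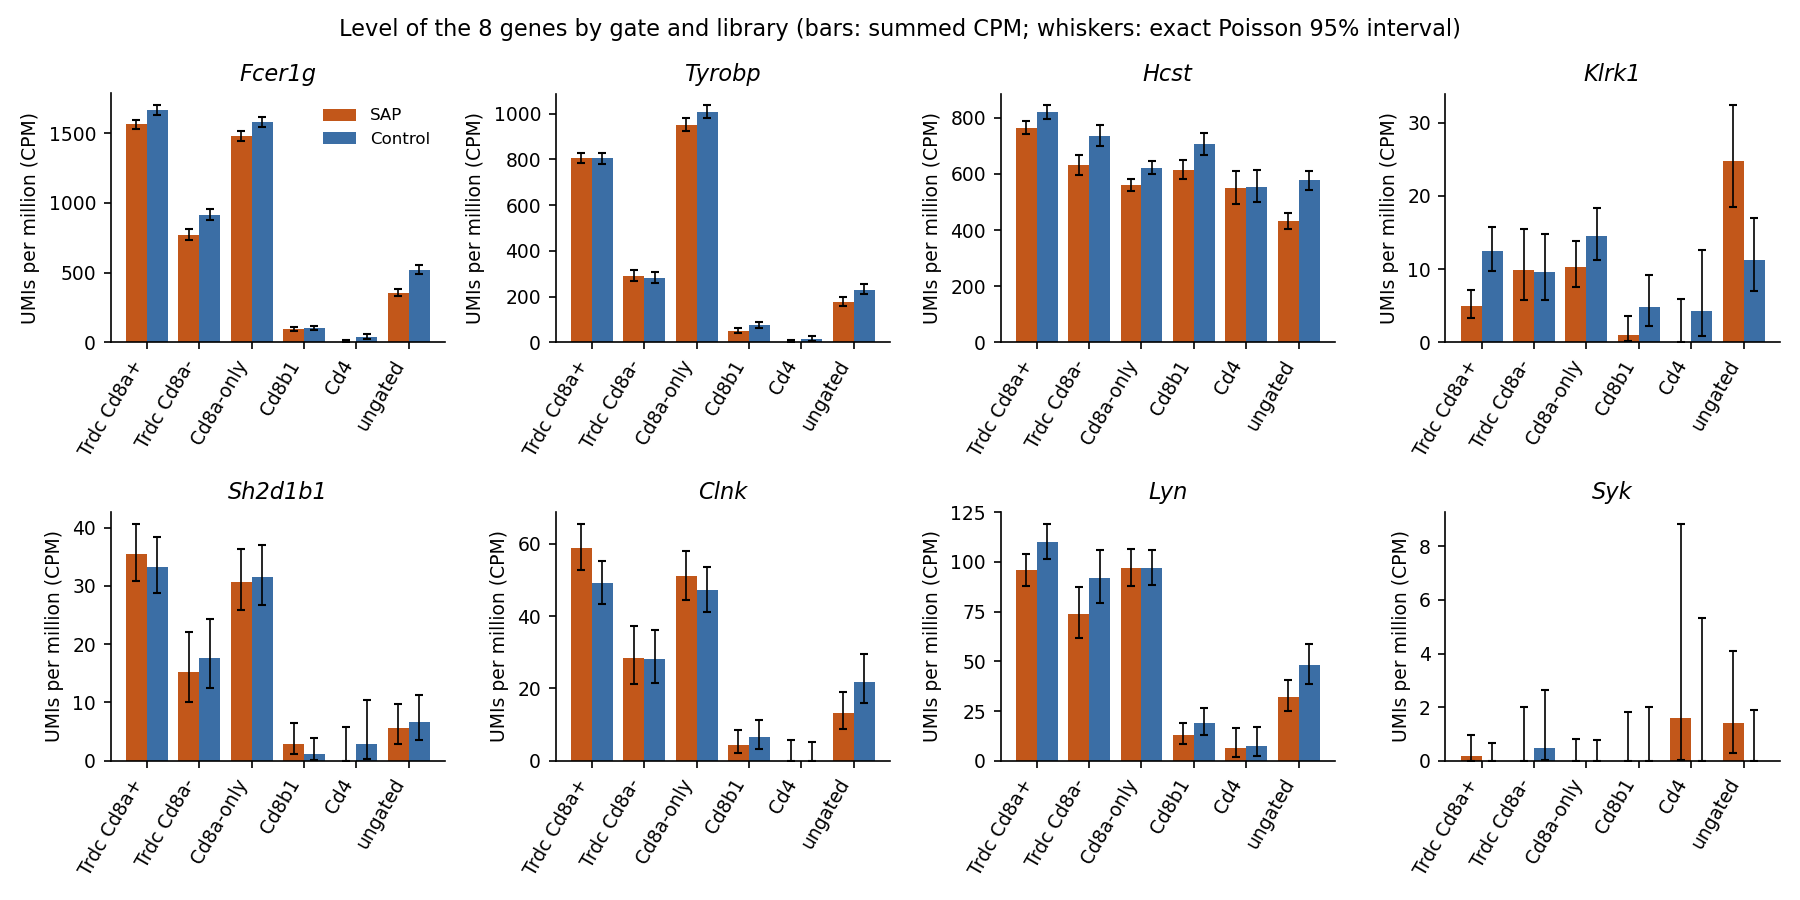
Level of each of the 8 genes, in CPM, in 6 gates of T cells in the SAP (orange) and Control (blue) library; bars are sums over the gate's cells and whiskers the exact Poisson 95% interval, and each panel has its own scale. Fcer1g, Tyrobp, Sh2d1b1, Clnk and Lyn are low in the Cd8b1 and Cd4 gates, Hcst runs between 433 and 821 in every gate, and Klrk1 and Syk rest on few UMIs.

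The Trdc over Cd8b1 ratio of Fcer1g was 14.8 (12.8 to 17.2) in SAP and 14.4 (12.4 to 16.7) in Control. Tyrobp followed the same order of gates except at the top, where the Cd8a-only cells stood highest, with 952 CPM in SAP and 1008 in Control. The Trdc gate had 682 (664 to 701) and 663 (645 to 681), the Cd8b1 gate 50.3 and 75.1, and the Cd4 gate 3.17 and 14.4. Its Trdc over Cd8b1 ratio was 13.6 (11.2 to 16.7) in SAP and 8.82 (7.45 to 10.5) in Control, and these intervals do not overlap. Trdc over Cd4 gave 289 (98.7 to 1400) for Fcer1g and 215 (59.5 to 1776) for Tyrobp in SAP, and 37.5 (25.8 to 57.0) and 46.0 (25.0 to 95.9) in Control, where Tyrobp stood at 75.8 without barcodes holding UMIs of 2 or more markers of another cell type. Within the Trdc gate the cells with Cd8a had 2.76 (2.52 to 3.03) times the Tyrobp of those without in SAP and 2.86 (2.62 to 3.12) times in Control. The same ratio for Fcer1g was 2.03 (1.92 to 2.15) and 1.82 (1.73 to 1.91).

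Hcst did not share this order. It had 733 CPM in the SAP Trdc gate, 561 in the Cd8a-only, 615 in the Cd8b1, 550 in the Cd4 gate and 433 in the ungated cells. In Control the same gates had 798, 622, 705, 555 and 577. The Trdc over Cd8b1 ratio of Hcst was 1.19 (1.12 to 1.27) in SAP and 1.13 (1.06 to 1.20) in Control. Hcst RNA was present in each gate, the Cd4 and Cd8b1 gates included.

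Shares of cells with a UMI gave the same picture at equal depth. Cells were thinned to 1000 UMIs, and those with fewer were left out, 92 SAP and 89 Control cells of the Trdc gate, 109 and 107 of the Cd8a-only, 16 and 21 of the Cd8b1 and 11 and 7 of the Cd4 gate. Fcer1g was then found in 60.8% (58.5 to 63.0) of SAP and 61.8% (59.7 to 63.9) of Control Trdc cells, against 4.77% (25 of 524) and 4.67% (24 of 514) of Cd8b1 cells. Unthinned, the shares were 75.0% and 76.2% of Trdc cells against 8.70% and 9.16% of Cd8b1 cells. The Cd4 cells, which should lack the gene, gave 0.654% (1 of 153) in SAP and 4.55% (8 of 176; 1.98 to 8.76) in Control, at a median depth of 3498 and 3375 UMIs, close to the 3632 and 3348 of the Trdc cells. The Control Cd8b1 share lies inside the interval of the Control Cd4 share, so by share these gates were not told apart in Control. By summed CPM, Fcer1g in the Cd8b1 gate was 2.61 (1.74 to 4.07) times the Cd4 level in Control. In SAP it was 19.5 (6.56 to 95.2) times, from 3 Cd4 UMIs. At least 3 Fcer1g UMIs were held by 21.2% of SAP and 23.2% of Control Trdc cells, against 0.954% and 0.973% of Cd8b1 cells. B and plasma cell markers summed to 11.1 CPM in the SAP Cd4 gate, against 11423 CPM, mostly Igkc, in the Control Cd4 gate; whether this moves with the Fcer1g there was not tested.

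Tyrobp was found in 33.2% of SAP and 33.7% of Control Trdc cells after thinning (46.2% and 49.8% unthinned) and in 45.5% and 45.4% of Cd8a-only cells. It was found in 2.29% and 3.11% of Cd8b1 cells. Among Cd4 cells there were 0 of 153 in SAP, which allows a share of up to 1.96% (3 counts over the cells), and 3 of 176 in Control (1.70%). Hcst was found in 47.9% of SAP and 49.4% of Control Trdc cells, 42.9% and 45.7% of Cd8b1 cells and 41.2% and 40.9% of Cd4 cells. Retained barcodes without a CD3 UMI gave 16.7% (9 of 54) and 30.4% (14 of 46), at a median of 807 and 739 UMIs before those under 1000 were left out.

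The levels also changed with the number of gate UMIs. Among cells without Cd8b1 or Cd4, Hcst had 519, 535, 724 and 784 CPM at 0, 1, 2 and 3 or more Trdc UMIs in SAP, and 609, 639, 798 and 841 in Control. Fcer1g had 1116, 988, 1332 and 1477 in SAP and 1273, 1142, 1316 and 1587 in Control. Tyrobp had 700, 502, 678 and 727 in SAP and 781, 543, 568 and 721 in Control. Both ITAM adaptors were lowest at 1 Trdc UMI, while Hcst was lowest at 0. The median depth of these cells was 3063, 2505, 3079 and 4008 UMIs in SAP, and the part of depth in the order was not tested. In the Cd8b1 gate, cells with 2 or more Cd8b1 UMIs had 57.0 CPM of Fcer1g against 145 in those with 1 in SAP, and 58.9 against 160 in Control. For Tyrobp the values were 26.5 against 85.4 and 38.4 against 125, while Hcst had 636 against 583 and 688 against 730.

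Klrk1, the gene of the NKG2D receptor, was sparse throughout. It had 148 UMIs in all SAP T cells (8.48 CPM) and 194 in all Control T cells (11.1 CPM). The Trdc gate held 47 UMIs in SAP (6.15 CPM, 4.52 to 8.18) and 90 in Control (11.7 CPM, 9.39 to 14.4), and the Cd8b1 gate 2 and 9. Its Trdc over Cd8b1 ratio was 6.24 (1.63 to 53.1) in SAP and 2.40 (1.21 to 5.42) in Control. The highest SAP level was in the ungated cells, at 24.7 CPM (18.5 to 32.3) from 53 UMIs in 25 cells, with up to 6 in 1 cell. After thinning, 0.737% of SAP and 1.09% of Control Trdc cells held a Klrk1 UMI, against 0.191% and 0.195% of Cd8b1 cells; there were 0 Cd4 cells of 153 in SAP and of 176 in Control, which by 3 counts over the cells allows up to 1.96% and 1.70%, so no difference in share between the Trdc and Cd4 cells was detectable at this depth. The 5 genes of NKG2D ligands on the pathway list did not reach the minimum of 50 CPM and 50 UMIs in any comparison.

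Of the signalling genes, Sh2d1b1, Clnk and Lyn followed the ITAM adaptors and Syk was almost undetected. Syk, the kinase that docks on phosphorylated ITAMs in myeloid, B and natural killer cells, had 5 UMIs in all SAP and 1 in all Control T cells, of which 1 and 1 were in the Trdc gate. Zap70, its family member in T cells, had 3087 and 3309 UMIs in the same cells. Lyn, a Src family kinase best known from myeloid and B cells, had 90.4 CPM in the SAP and 105 in the Control Trdc gate, against 12.8 and 18.9 in the Cd8b1 gate, a ratio of 7.06 (4.78 to 10.9) in SAP and 5.56 (3.96 to 8.03) in Control. Lyn had 96.8 and 96.7 CPM in the Cd8a-only gate and 6.34 and 7.21 in the Cd4 gate.

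Clnk encodes MIST, an adaptor of the SLP-76 family. It had 51.6 CPM in the SAP and 43.3 in the Control Trdc gate, 4.43 and 6.49 in the Cd8b1 gate, and 0 UMIs in both Cd4 gates. Against the Cd4 gate, with its floor of 3 UMIs, Clnk was at least 10.8-fold higher in SAP Trdc cells and at least 10.0-fold higher in Control Trdc cells. Sh2d1b1 encodes EAT-2, an adaptor of SLAM family receptors in natural killer cells. It had 30.6 CPM in the SAP and 29.1 in the Control Trdc gate, and 2.96 and 1.08 in the Cd8b1 gate from 6 and 2 UMIs. The Trdc over Cd8b1 ratio of Clnk was 11.6 (6.06 to 25.6) in SAP and 6.68 (3.77 to 13.1) in Control, and that of Sh2d1b1 10.4 (4.69 to 28.5) and 26.9 (7.36 to 223), the last 13.6 with no doublet removal. After thinning, a Lyn UMI was found in 8.06% of SAP and 9.30% of Control Trdc cells against 0 to 0.568% of Cd4 cells. For Clnk it was 5.16% and 4.53% against 0 in both Cd4 gates, with the same limits of 1.96% and 1.70%, and for Sh2d1b1 3.63% and 3.02%, with 0 of 524 and 0 of 514 Cd8b1 cells, which by 3 counts over the cells allows up to 0.573% and 0.584%.

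**Figure D2:**
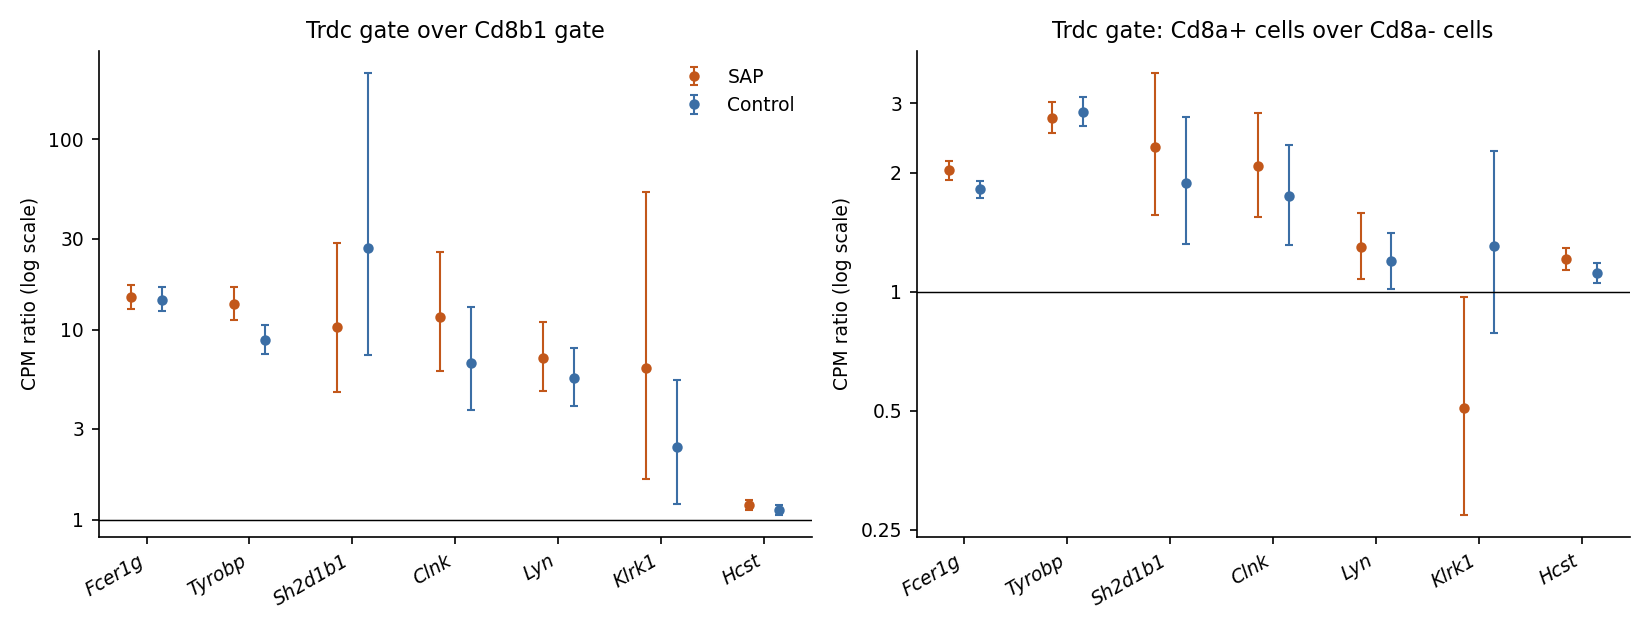
Ratio of summed CPM on a log scale for 7 of the 8 genes, with exact conditional binomial 95% intervals, in SAP (orange) and Control (blue): Trdc gate over Cd8b1 gate on the left, and Trdc cells with Cd8a over those without on the right. On the left Hcst lies just above 1 (1.19 in SAP, 1.13 in Control) and Fcer1g near 15; on the right Fcer1g, Tyrobp, Sh2d1b1 and Clnk lie between 1.74 and 2.86.

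Counted against all genes, 4 of the 5 members that reached the minimum of 50 CPM in 1 gate and 50 UMIs over both were at least 1.5-fold higher in the Trdc than in the Cd8b1 gate in SAP, where 8.4% of 3094 genes were. In Control it was 3 of 4 members, against 8.47% of 2928 genes. These were Fcer1g, Tyrobp and Lyn, with Clnk in SAP; Hcst was below the fold, and Klrk1, Sh2d1b1 and Syk were under the minimum. The median log2 ratio of the members that reached it was 3.54 in SAP and 2.81 in Control, against 0.08 and 0.06 over all genes. Trdc over Cd4 gave 4 of 5 in SAP, against 18.4% of genes, and 3 of 4 in Control, against 17.7%. Cd8a-only over Cd8b1 gave 4 of 5, against 11.6%, and 3 of 4, against 9.41%. For Trdc cells with Cd8a over those without it was 3 of 5 in SAP, against 5.11%, and 2 of 4 in Control, against 3.4%. Members that pass the minimum only through the gate where they are high are more likely to differ, so these counts describe them and support nothing further. Against the Cd8b1 gate this holds for Lyn in both libraries and for Clnk in SAP.

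The Trdc and Cd8a-only gates were much alike in these genes. At 1.5-fold 0 of 5 members differed in SAP, against 4.05% of genes, and 1 of 4 in Control, against 2.05%. That 1 was Tyrobp, lower in the Trdc gate, with a ratio of 0.716 (0.688 to 0.746) in SAP and 0.658 (0.632 to 0.684) in Control. Fcer1g had 0.927 and 0.923, Clnk 1.01 and 0.920 and Sh2d1b1 0.995 and 0.920 in SAP and in Control, and Hcst was higher in the Trdc gate at 1.31 and 1.28. Among the CD3 and CD247 chains, Cd247, the ζ chain whose place FcRγ can take, was higher in the Trdc than in the Cd8a-only gate: 113 against 54.8 CPM in SAP (2.06-fold, 1.79 to 2.39) and 107 against 58.2 CPM in Control (1.84-fold, 1.60 to 2.11). Cd3g differed by 1.10 and 1.07. Klre1, a receptor gene of the natural killer complex, was lower in the Trdc gate, with 63.6 against 166 CPM in SAP and 71.5 against 166 CPM in Control. Klrb1a, another such receptor gene, was lower there too, at 0.542 (0.469 to 0.626) in SAP and 0.641 (0.549 to 0.747) in Control.

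The other genes of the pathway were taken from 6 lists. Among 11 natural killer-type receptor genes, 3 reached the minimum, and all 3 were at least 1.5-fold higher in the Trdc than in the Cd8b1 gate. Of all genes, 8.4% were in SAP and 8.47% in Control. Klrd1, the CD94 chain of NKG2 receptors, had 1009 against 208 CPM in SAP (4.85-fold) and 1085 against 242 CPM in Control (4.48-fold). Klre1 was 7.59-fold and 3.39-fold higher, and passed the minimum through the Trdc gate alone, with 8.38 CPM in the SAP and 21.1 in the Control Cd8b1 gate. Cd244a, the SLAM family receptor 2B4, was 2.20-fold and 2.12-fold higher. Under the minimum, Klrb1a, Klrb1c and Fcgr3 were higher in the Trdc gate in both libraries. Klrc2 had a ratio of 2.16 (1.28 to 3.89) in SAP but 0.444 (0.308 to 0.648) in Control. Klrb1f had 0.245 (0.102 to 0.583) in SAP and 0.528 (0.169 to 1.94) in Control, on few UMIs. Of the 4 chains with ITAMs in the T cell receptor complex, 2 passed the fold in SAP and 1 in Control. These were Cd3g, at 1.59 and 1.53, and Cd3e, at 1.56 in SAP, with 1.46 in Control. Of 11 Src, Syk and Tec family kinases 5 reached the minimum and 1 passed, Txk, at 2.53 in SAP and 2.50 in Control; Zap70 stood at 1.48 and 1.36.

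Of 16 adaptors and effectors, 9 reached the minimum in SAP and 8 in Control. Under it, Sh2d1a, a relative of Sh2d1b1, was lower in the Trdc than in the Cd8b1 gate. Its ratio was 0.232 (0.165 to 0.325) in SAP and 0.204 (0.147 to 0.282) in Control. Vav3, Sh3bp2 and Pik3ap1, also under the minimum, were higher in the Trdc gate in both libraries. Lat2, the LAT relative NTAL of myeloid and B cells, was 4.87-fold higher in the SAP and 3.53-fold higher in the Control Trdc gate. Lat itself was lower, with 159 against 466 CPM in SAP (0.342) and 155 against 403 CPM in Control (0.386). Grap2, the GADS adaptor that ties SLP-76 to LAT, was lower too, at 0.455 and 0.495; 2.62% of genes in SAP and 2.53% in Control were at least 1.5-fold lower. Plcg2, a phospholipase C downstream of ITAMs, was 2.89-fold and 1.66-fold higher, and Pik3cd, a catalytic subunit of phosphoinositide 3-kinase, had 1.27 in SAP and passed the fold in Control at 1.51. Of 10 negative regulators 9 reached the minimum, and 4 in SAP and 3 in Control were higher, against the same 8.4% and 8.47% of all genes: Ptpn6, the SHP-1 phosphatase recruited by inhibitory receptors, at 2.86 and 2.94, Ubash3b, the phosphatase Sts-1, at 2.35 and 2.26, the Src-like adaptor Sla2 at 2.08 and 1.61, and its relative Sla at 1.72 in SAP, with 1.34 in Control. Ptpn6, Ubash3b and Sla2, and Lat2 and Plcg2 above, passed the minimum through the Trdc gate alone. Ubash3a, the relative of Ubash3b and the regulator under the minimum, went the other way, with 4.45 against 31.5 CPM in SAP (0.141, 0.0903 to 0.217) and 2.08 against 29.7 CPM in Control (0.0698, 0.0373 to 0.124). The median log2 ratio of the lists was 2.28 in SAP and 1.76 in Control for the receptors, 0.57 and 0.48 for the negative regulators, 0.51 and 0.49 for the ITAM chains, 0.14 and 0.06 for the kinases, and -0.06 and 0.14 for the adaptors and effectors. Myeloid and dendritic cell markers summed to 198 CPM in the SAP and 223 in the Control Trdc gate, against 130 and 119 in the Cd8b1 gate. In the SAP Trdc gate Cst3 had 116 and Itgax 64.7 CPM, and Lyz2, Clec9a and Fcgr1 were at 0 in both Trdc gates. Their part in the adaptor levels was not tested. Mast cells and basophils use FcRγ with the high-affinity IgE receptor. Their 7 markers summed to 11.3 CPM in the SAP and 9.47 in the Control Trdc gate, with 2 and 4 of them above 0. Fcer1a, Ms4a2 and Mcpt8 were at 0 in both gates, and Mcpt1 and Mcpt2 in SAP only. Hdc made up most of the SAP sum, with 9.95 CPM. Natural killer and innate lymphoid markers summed to 89.3 CPM in the SAP and 84.3 in the Control Trdc gate. Over all T cells that list was led by Gata3, which T cells also express, at 56.1 CPM in SAP and 53.9 in Control, and Ncr1, which marks natural killer cells, had 0.745 and 0.229 CPM.

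Within a gate the ITAM adaptors were found in the same cells more often than their shares give. After thinning, 531 SAP Trdc cells held both Fcer1g and Tyrobp where the product of the shares gives 383, a ratio of 1.38 (1.29 to 1.49), and 607 Control cells where it gives 442, a ratio of 1.37 (1.28 to 1.47). Of Trdc cells with Fcer1g, 46.0% held Tyrobp in SAP and 46.3% in Control, against 13.4% and 13.3% of those without Fcer1g. Both genes were found in 28.0% of SAP and 28.6% of Control Trdc cells, Fcer1g alone in 32.8% and 33.2%, Tyrobp alone in 5.27% and 5.10%, and neither in 34.0% and 33.1%. The pattern was found in Trdc cells with Cd8a, where 49.0% of SAP cells with Fcer1g and 18.0% of those without held Tyrobp (50.5% and 18.3% in Control), and in Trdc cells without Cd8a, with 31.8% and 4.94% (31.6% and 5.45% in Control). In the Cd8a-only gate 61.3% of cells with Fcer1g and 21.6% of cells without it held Tyrobp in SAP, and 62.8% and 18.6% in Control.

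In the Cd8b1 gate the overlap was far from the product of the shares. Of the cells with Fcer1g, 9 of 25 in SAP (36.0%) and 9 of 24 in Control (37.5%) held Tyrobp, against 0.601% and 1.43% of those without Fcer1g; 0.573 and 0.747 cells would be given by the shares. A further 3 SAP and 7 Control Cd8b1 cells held Tyrobp alone, and 16 and 15 held Fcer1g alone. Hcst was not linked in this way: Fcer1g and Hcst gave 0.986 in SAP and 0.994 in Control Trdc cells, and Tyrobp and Hcst 0.916 and 0.932. Sh2d1b1 went with both ITAM adaptors, at 1.88 (1.36 to 2.52) in SAP and 1.62 (1.13 to 2.25) in Control with Tyrobp and at 1.36 (1.03 to 1.75) and 1.34 (1.01 to 1.75) with Fcer1g. Fcer1g gave 1.11 and 1.04 with Clnk and 1.13 and 1.20 with Lyn. All 3 adaptors were found in 12.4% of SAP and 13.3% of Control Trdc cells and in 1.15% and 0.778% of Cd8b1 cells. None of the 3 was found in 17.0% and 16.3% of Trdc cells and in 55.0% and 51.4% of Cd8b1 cells.

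**Figure D3:**
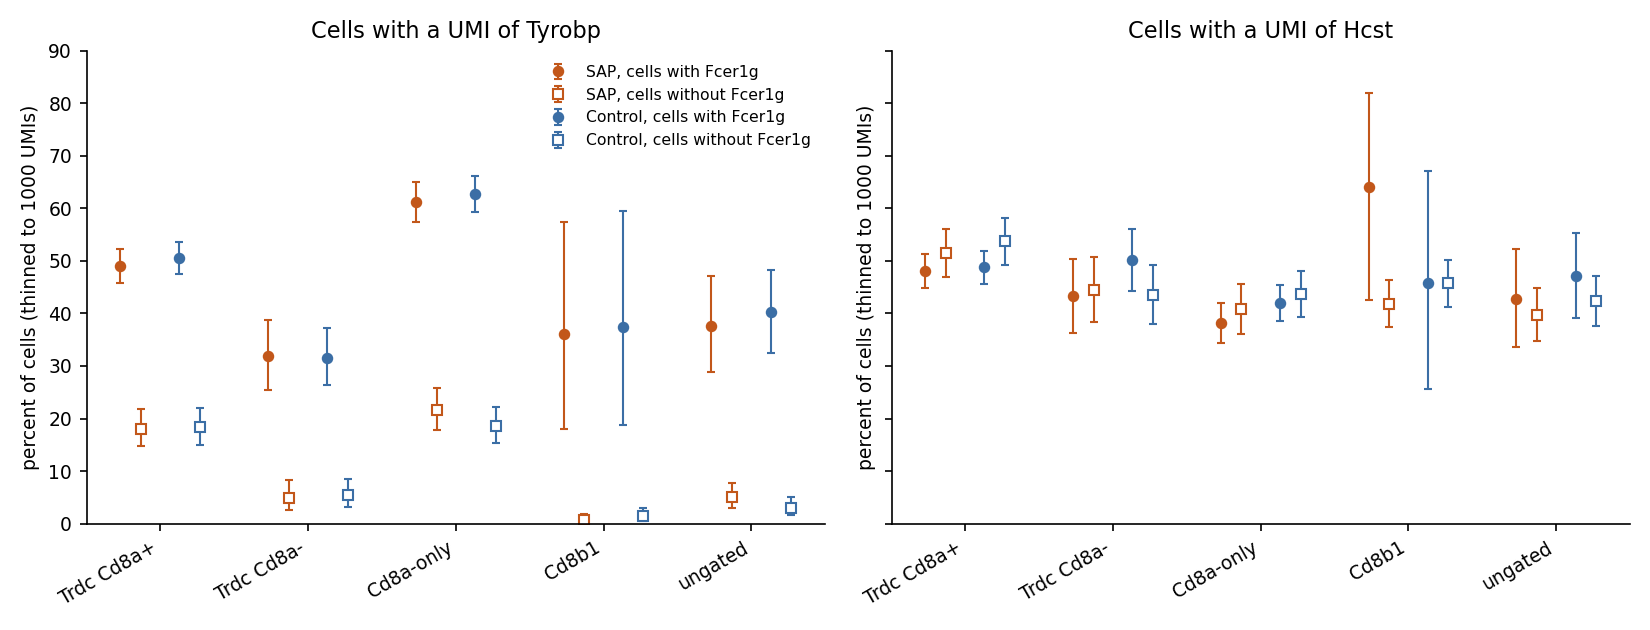
Percent of cells with a UMI of Tyrobp (left) and of Hcst (right) among cells with Fcer1g (filled circles) and without it (open squares), by gate, in SAP (orange) and Control (blue), cells thinned to 1000 UMIs, with exact Clopper-Pearson 95% intervals. Tyrobp is more frequent in cells with Fcer1g in each of the 5 gates (36.0% against 0.601% in the SAP Cd8b1 gate), while for Hcst the intervals of both kinds of cell overlap in each.

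Likeness of pattern was taken as Pearson's r of log2(CPM + 10) over 12 points, 6 gates in 2 libraries, among 3525 genes. The points share cells' libraries and gates, so r is given as a description. Fcer1g and Tyrobp gave 0.986 with each other, Fcer1g gave 0.971 with Clnk, 0.974 with Lyn and 0.395 with Hcst. The genes most like Fcer1g were Sft2d2 (0.989), Ikzf2 (0.989) and Irs2 (0.988). Ikzf2, the transcription factor Helios, had 1363 CPM in the SAP and 1366 in the Control Trdc gate, 350 and 432 in the Cd8b1 gate and 184 and 262 in the Cd4 gate. Those most like Tyrobp were Mcam (0.997), Cd200r2 (0.988) and Sft2d2 (0.986), and Clnk was closest to Mcam (0.991) and Cd200r2 (0.989), then Tiprl (0.988). Lyn was closest to Irs2 (0.991), Sft2d2 (0.989) and Spry2 (0.988). The nearest to Hcst were Lgals9 (0.905), Cox8a (0.885) and Cd164 (0.883).

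Between the libraries the adaptors differed little. Over all T cells Fcer1g had 1047 CPM in SAP and 1161 in Control, a ratio of 0.901 (0.883 to 0.920), Tyrobp 575 and 608 (0.946, 0.921 to 0.972), and Hcst 629 and 702 (0.896, 0.873 to 0.919). Without the Folr1-rich barcodes the ratios were 0.945, 0.990 and 0.939. Lyn had 70.4 and 82.0 CPM (0.860, 0.796 to 0.928; 0.892 without), Clnk 38.1 and 35.8 (1.07, 0.955 to 1.19; 1.12 without), and Sh2d1b1 22.5 and 22.9 (0.985, 0.855 to 1.13; 1.03 without). Of the 4 members that reached the minimum 0 were 1.5-fold apart, against 3.99% of 3005 genes, or 0.138% of 2893 genes without the Folr1-rich barcodes. Of the genes of the 6 pathway lists that reached the minimum, 0 were 1.5-fold apart.

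Within the Trdc gate the SAP over Control ratio was 0.940 (0.915 to 0.965) for Fcer1g, 1.03 (0.990 to 1.07) for Tyrobp, 0.919 (0.886 to 0.953) for Hcst and 0.860 (0.776 to 0.954) for Lyn, and 0 of the members that reached the minimum were 1.5-fold apart, against 1.44% of genes. Without the Folr1-rich barcodes these ratios were 0.955, 1.04, 0.935 and 0.872. Clnk stood at 1.19 (1.03 to 1.38), and at 1.21 without the Folr1-rich barcodes. The Cd8a-only gate gave 0.937 (0.906 to 0.968) for Fcer1g, 0.945 (0.907 to 0.985) for Tyrobp and 0.901 (0.854 to 0.950) for Hcst, and 0.975, 0.984 and 0.936 without those barcodes. In the Cd8b1 gate Tyrobp was lower in SAP, with 102 UMIs (50.3 CPM) against 139 UMIs (75.1 CPM) in Control, a ratio of 0.669 (0.513 to 0.870; 0.669 without the Folr1-rich barcodes), while Fcer1g had 188 UMIs in each library (0.911, 0.741 to 1.12; 0.930 without). In the Cd4 gate Fcer1g was lower in SAP at 0.122 (0.0237 to 0.397; 0.123 without), from the 3 and 27 UMIs given above.

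Klrk1 differed between the libraries on few UMIs and in opposite directions in different gates; the difference between gates was not tested. In the Trdc gate it was lower in SAP, at 0.527 (0.362 to 0.758), and at 0.535 without the Folr1-rich barcodes. Other processing settings gave 0.491 to 0.705. Trdc cells with Cd8a had 29 UMIs in SAP and 70 in Control (0.400, 0.250 to 0.625, and 0.403 without the Folr1-rich barcodes). Trdc cells without Cd8a had 18 and 20 (1.03, 0.513 to 2.05, and 1.09 without those barcodes). These intervals overlap, and whether the ratio differs between cells with and without Cd8a was not tested. In the ungated cells Klrk1 was higher in SAP, with 53 UMIs in 25 cells against 22 UMIs in 14 cells in Control (2.21, 1.32 to 3.81). The ratio was 2.83 (1.69 to 4.89) without the Folr1-rich barcodes and 3.38 in barcodes with at least 1500 UMIs. The lowest over the other processing settings was 2.07. In those cells, 18 SAP and 5 Control barcodes were Folr1-rich, epithelial markers summed to 573 CPM in SAP and 183 in Control, and 23.6% of genes were 1.5-fold apart, or 2.44% without the Folr1-rich barcodes. The ungated ratios of Fcer1g, Tyrobp and Hcst, 0.680, 0.769 and 0.750, became 0.875, 0.985 and 0.964 without them.

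**Figure D4:**
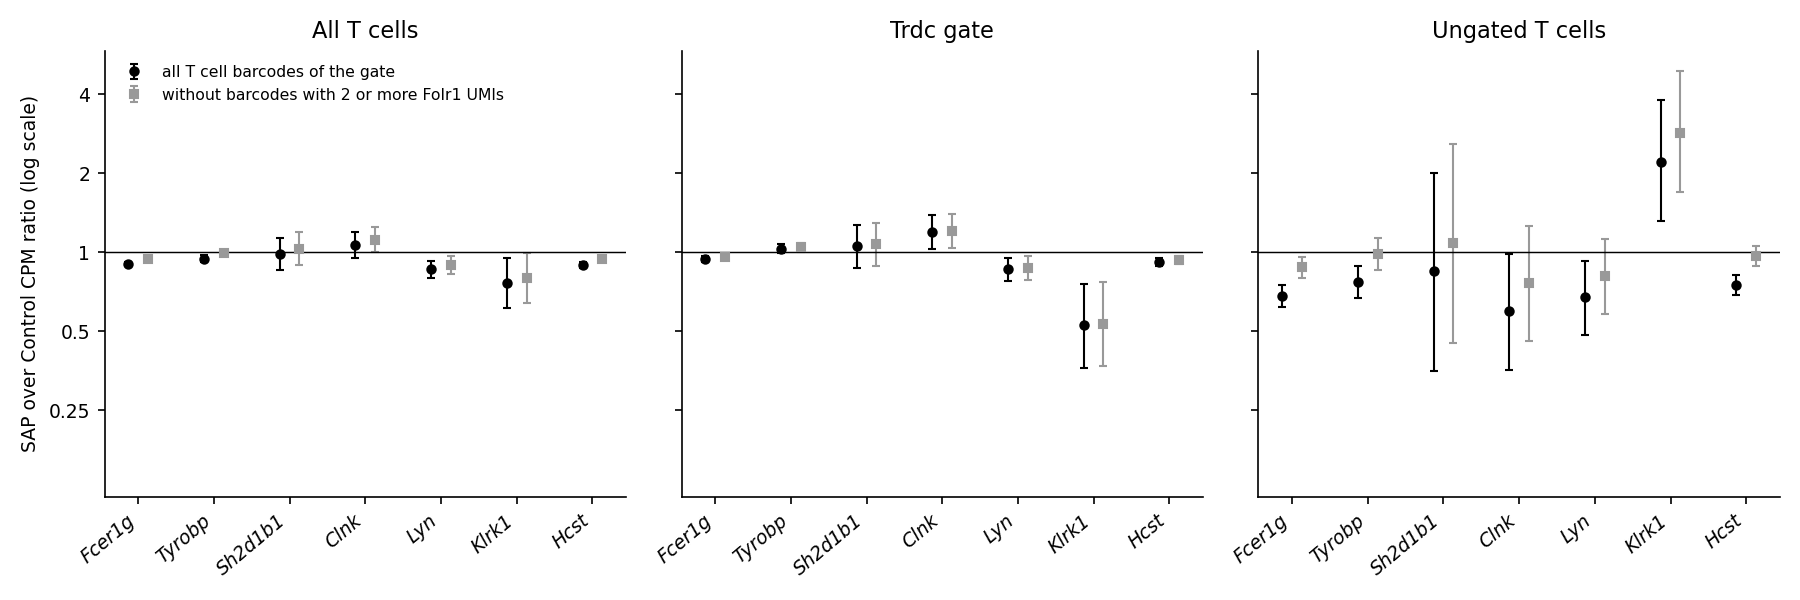
SAP over Control ratio of CPM on a log scale for 7 genes in all T cells, in the Trdc gate and in the ungated cells, with exact conditional binomial 95% intervals; black circles are all barcodes of the gate and grey squares leave out those with 2 or more Folr1 UMIs. The adaptors lie close to 1 in all T cells and in the Trdc gate, and Klrk1 lies at 0.527 in the Trdc gate and 2.21 in the ungated cells.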

How the data were processed

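The authors deposited, for each of the 2 libraries, a sparse matrix of raw counts, UMIs per gene and barcode. Per the file headers its maker was Cell Ranger 7.1.0; mm10 and Seurat are named in the submitters' processing notes. Annotation release, any filter before deposit and use of strand: not given in the sources used here. GENCODE M21, from which positions were taken, held 52081 of the 55357 gene identifiers. Depth was 19144320 UMIs over 5203 barcodes in SAP and 19142384 over 5737 in Control.

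Barcodes were kept with at least 500 UMIs, 300 genes and at most 10% mitochondrial UMIs, 5028 in SAP and 5665 in Control. Scrublet (scanpy 1.11.5) marked 1 barcode in each library, under the limit of 0.5%, so the top scores were removed up to 0.8% per 1000 barcodes, 202 and 257. UMIs were summed per gate and scaled to CPM. Ratios of CPM carry exact conditional binomial, CPM exact Poisson and shares exact Clopper-Pearson 95% intervals, computed with scipy 1.17.1. Ratios of joint detection carry the Clopper-Pearson interval of the joint share over the product of the shares held fixed. The error of that product is left out, and a limit can exceed the largest possible ratio. Intervals of CPM ratios were tried on simulated Poisson sums, where 91% to 98% of those of changed genes held the true fold. The simulation had no cells, so it could not show the effect of UMIs clustered in cells. Genes counted needed 50 CPM in 1 of the 2 sums and 50 UMIs over both. A fold against 0, and the share a count of 0 allows, used a floor of 3 counts. edgeR 4.0.16 and DESeq2 1.42.0 gave other scalings of the summed counts; neither was used as a test. All 8 members are named, together with the 3 genes most alike for each member with 50 CPM in a gate. List genes past 1.5-fold are named for the Trdc gate against the Cd8b1 and the Cd8a-only gate, not for the other comparisons of gates. A few further list genes were chosen after their values were seen. Members and lists were chosen with earlier results of these data known.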

Additional observations from a re-analysis of the deposited data

Results flagged for a closer look

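Klrk1 went opposite ways between the libraries in different gates: its SAP over Control ratio was 2.21 in the ungated cells, 0.527 in the Trdc gate and 0.203 (0.0213 to 0.979) in the Cd8b1 gate, the last from 2 and 9 UMIs (0.207 without the Folr1-rich barcodes). The difference between the gates was not tested. Clnk had a SAP over Control ratio of 1.19 in the Trdc gate and 0.597 (0.357 to 0.983) in the ungated cells, which became 0.766 (0.458 to 1.26) without the Folr1-rich barcodes; this difference was not tested either.

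The 175 SAP and 157 Control retained barcodes without a CD3 UMI, which enter no comparison, also held these genes. Fcer1g had 83.5 CPM in SAP and 87.6 in Control, Tyrobp 58.3 and 84.8, and Hcst 95.2 and 161. Klrk1 had 7.77 and 11.3 CPM, Clnk 27.2 and 14.1, and Lyn 13.6 and 28.3. Epithelial markers summed to 1708 CPM in these SAP and 1065 CPM in these Control barcodes, mast cell and basophil markers to 11.7 and 658 CPM, and B and plasma cell markers to 1.94 and 9408 CPM; their part in the values was not tested.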

How the results depend on the processing

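Of 271 recomputed log2 ratios of the members, 258 stayed within the counting interval of the reported value, 13 moved outside it and 0 changed sign while their interval left out 0. With no doublet removal Sh2d1b1, Trdc over Cd8b1 in Control, had the largest shift of those run (3.77 against 4.75, from 2 Cd8b1 UMIs in the reported value), and Fcer1g had a log2 ratio of 3.48 there, against 3.85. TMM scaling lowered the SAP over Control log2 ratios over all T cells by 0.10. For Fcer1g it was -0.25 with TMM, -0.23 with DESeq2's size factors, -0.0925 without barcodes holding markers of other cell types and -0.0822 without the Folr1-rich ones, against -0.15. For Tyrobp these were -0.18, -0.16, -0.0201 and -0.0144 against -0.08, and for Hcst -0.26, -0.24, -0.10 and -0.0912 against -0.16. With no minimum CPM 1877 genes in each library were 1.5-fold apart between Trdc and Cd8b1 (341 in SAP and 322 in Control with it), 3689 and 3475 between Trdc and Cd4 (958 and 868), and 1444 between SAP and Control (120), where there were 4 without the Folr1-rich barcodes.

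Shares depended on depth. Fcer1g was found in 73.2% of SAP and 74.9% of Control Trdc cells at 2000 UMIs (75.0% and 76.2% unthinned), and in 7.76% and 8.50% of Cd8b1 cells (8.70% and 9.16%). Tyrobp was found in 42.3% and 45.9% of Trdc cells (46.2% and 49.8%), and in 5.23% of Control Cd8b1 cells unthinned. The joint detection of Fcer1g and Tyrobp in Trdc cells was 1.28 and 1.26 times the product of the shares at 2000 UMIs. No paired analysis was possible because the labels give no replicate numbers and each group has 1 library, so no replicate could be left out. Klrk1, Syk, the Cd4 gates and the Cd8b1 values of Sh2d1b1 and Clnk rest on few UMIs.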
